A study of Mus musculus with 10 samples.

Results

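Genes that mark the supporting tissue of an organ, its fibroblasts and mural cells, were followed through small cell lung cancers of mice: Mgp, Mfap5, Dcn, Lum, Fmo2, Dpt, Pdgfra, Pdgfrb, Acta2 and Rgs5. They were taken by symbol, so they are 10 of the 35288 genes in the table, and all 10 were among the 15503 genes tested. Fibroblasts lay down the collagen, elastic fibers and proteoglycans of an organ, and carry the platelet-derived growth factor (PDGF) receptor alpha, the product of Pdgfra. Mural cells, the pericytes and smooth muscle cells wrapped around vessels, depend on PDGF receptor beta, the product of Pdgfrb, and contract through alpha smooth muscle actin, the product of Acta2. In liver, pericytes of the sinusoids are called stellate cells, and the fibroblasts around the portal tracts are a separate population.

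The 10 libraries came from 6 mice. Mice of the genotype RPR2;Nfibf/f (Nfib-floxed) gave 2 liver metastases (mice JHK1398 and JHK1399) and 3 lung tumors (JHK1398, JHK1399 and JHK997). The RPR2 mice gave 2 liver metastases (JHK1373 and JHK1394) and 3 lung tumors (JHK1373, JHK1394 and JHK1548). RPR2 is the field's name for a small cell lung cancer model in which floxed Rb1, Trp53 and Rbl2 are deleted by Cre, so all 4 groups share those deletions, and the Nfib-floxed mice add floxed alleles of Nfib, the gene of a transcription factor. The labels do not say how Cre was delivered or how old the mice were, and the floxed Nfib alleles are known only from the label. Tissue was macrodissected from morbid mice, so each library mixes tumor cells with whatever host tissue came along; whether any stromal cell carried a deletion was not measured. Levels are the deposited TPM, each gene's share of a library's transcripts after allowance for transcript length, and can be set side by side between genes. In such bulk samples fewer cells of a type and less RNA per cell cannot be told apart.

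Upstream sequences are shown for 4 of the genes, chosen because Acta2 and Rgs5 varied together across the libraries and Fmo2 and Dpt were low in every metastasis. Each is the RefSeq window from 250 bases before to 50 bases after the gene's start in GRCm38.p6, read 5′ to 3′ on the gene's own strand. Windows were read for Fmo2, Dpt, Rgs5, Pdgfra and Acta2. None was found for Mgp, Mfap5, Dcn and Lum, and Pdgfrb was left out of this reading. Of the 2 windows listed for Fmo2, the first in the table is shown. Capitals mark every match, on either strand, to the TATA motif TATAAA, the CCAAT box, the RUNX core TGTGGT, the TEAD motif GGAATG and the CArG-like box. The last is the serum response factor's CArG box with at most 1 of its middle 6 bases neither A nor T.
Acta2, chr19:34255324-34255623, minus strand: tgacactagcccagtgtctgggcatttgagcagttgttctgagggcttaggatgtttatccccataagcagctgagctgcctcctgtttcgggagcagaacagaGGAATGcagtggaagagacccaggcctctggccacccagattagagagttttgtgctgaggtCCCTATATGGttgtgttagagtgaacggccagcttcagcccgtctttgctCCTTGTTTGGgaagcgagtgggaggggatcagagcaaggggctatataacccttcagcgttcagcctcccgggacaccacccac
Rgs5, chr1:169655251-169655550, plus strand: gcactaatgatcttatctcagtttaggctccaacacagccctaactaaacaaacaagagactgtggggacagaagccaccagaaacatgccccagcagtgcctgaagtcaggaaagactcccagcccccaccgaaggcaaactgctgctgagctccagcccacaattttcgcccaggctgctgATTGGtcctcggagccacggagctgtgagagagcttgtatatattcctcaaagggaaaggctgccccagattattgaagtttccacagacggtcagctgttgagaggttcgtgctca
Fmo2, chr1:162898709-162899008, minus strand: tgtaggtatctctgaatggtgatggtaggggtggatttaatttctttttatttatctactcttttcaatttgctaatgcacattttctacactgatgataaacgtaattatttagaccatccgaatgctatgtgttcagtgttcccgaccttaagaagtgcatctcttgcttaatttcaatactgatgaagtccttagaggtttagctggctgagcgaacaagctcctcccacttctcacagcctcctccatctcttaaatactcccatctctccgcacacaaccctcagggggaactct
Dpt, chr1:164796413-164796712, plus strand: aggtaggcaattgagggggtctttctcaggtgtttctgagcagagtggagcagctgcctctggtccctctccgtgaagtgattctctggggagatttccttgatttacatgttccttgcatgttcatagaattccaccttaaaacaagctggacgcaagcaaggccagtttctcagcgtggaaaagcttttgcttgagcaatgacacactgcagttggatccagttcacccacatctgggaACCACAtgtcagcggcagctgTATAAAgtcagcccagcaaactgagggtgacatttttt

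The Acta2 window held 2 CArG-like boxes, which began 84 and 34 bases before the start, and GGAATG 146 bases before it. Of the 32851 promoter windows in the RefSeq table, 9.98% held at least 1 CArG-like box and 0.822% held 2 or more. The strict CArG box, present in 1.63% of windows, was in none of these 4. The Rgs5 window held CCAAT on the opposite strand 67 bases before the start, a motif of 37.4% of windows. The Dpt window held TGTGGT on the opposite strand 9 bases before the start and TATAAA 12 bases after it, motifs of 16.8% and 13.6% of windows. Neither window of Fmo2, nor that of Pdgfra, held any of these motifs; GGAATG is in 14.7% of windows. These are matches of letters, and binding was not measured here.

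In the genome (GRCm38) Mgp lies on chromosome 6 at 136872435 to 136875823, and Mfap5 on the same chromosome at 122505845 to 122529290. Dcn (97479609 to 97518143) and Lum (97565128 to 97572703) are neighbors on chromosome 10, 46984 bases apart. Fmo2, Dpt and Rgs5 lie far apart on chromosome 1, Pdgfra on chromosome 5, Pdgfrb on chromosome 18 and Acta2 on chromosome 19. In the GENCODE annotation Dpt overlaps 1 antisense gene, and Pdgfra overlaps 3 further genes. The labels do not say whether the library preparation kept strand, so reads of such partners cannot be told apart from those of Dpt and Pdgfra.

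Across libraries, the genotype and tissue labels were first set against marker genes. Nfib was at 26.5 to 46.1 TPM in the 5 Nfib-floxed libraries, against 28.3 to 643 TPM in the 5 RPR2 libraries, and these ranges overlap. The 14 genes of normal lung epithelium, none at 0 in every library, summed to 41.0 to 267 TPM in the 4 metastases, against 2489 to 68638 TPM in the 6 lung tumors. The lung tumors of JHK1394 and JHK1398 stood highest, at 68638 and 59246 TPM. The 16 hepatocyte genes summed to 10725 and 10369 TPM in the RPR2 metastases and to 3002 TPM in the Nfib-floxed metastasis of JHK1399, against 105 to 1260 TPM in the lung tumors. In the Nfib-floxed metastasis of JHK1398 they summed to only 119 TPM, within the range of the lung tumors, so hepatocyte genes do not set this labelled metastasis apart from the lung tumors. Its normal lung epithelium sum was 41.0 TPM, the lowest of the 10. Results are therefore given with and without it where it matters. The lung tumor of JHK997 held the highest level of 6 of the 10 stromal genes. Their sum was 225 to 342 TPM in the metastases, against 582 to 2313 TPM in the lung tumors, with the 2313 TPM in JHK997. Mgp carries that separation: without it the other 9 genes summed to 189.5 to 315 TPM in the metastases, against 163 to 841 TPM in the lung tumors, and the ranges overlap.

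**Figure D1:**
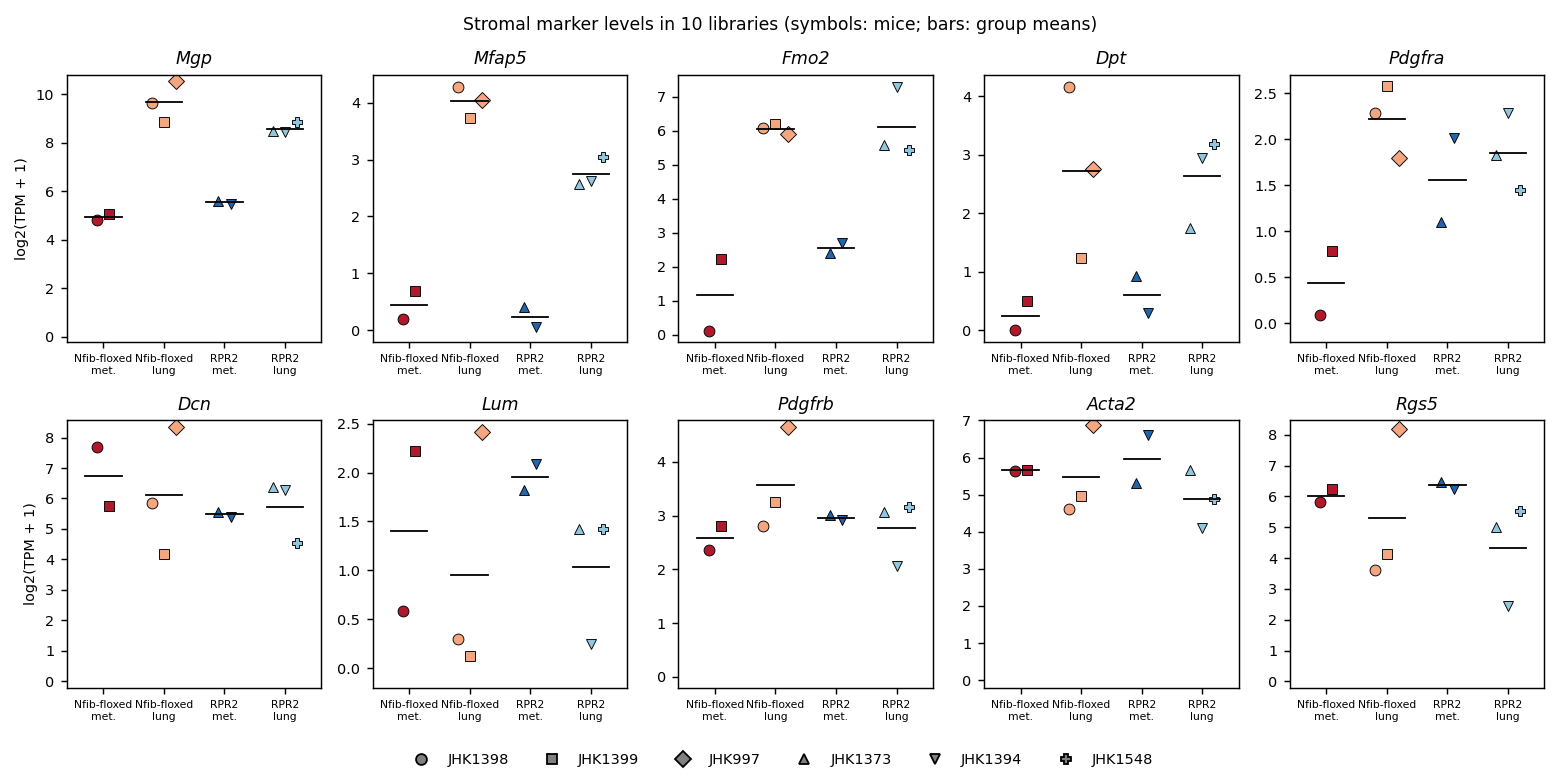
Level of each of the 10 genes, as log2(TPM + 1), in each library of the 4 groups; symbols mark the mouse and horizontal bars the group mean. Mgp, Mfap5, Fmo2 and Dpt are lower in all 4 metastases than in any of the 6 lung tumors, and the lung tumor of JHK997 (diamond) stands highest for Mgp, Dcn, Lum, Pdgfrb, Acta2 and Rgs5.

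Mgp, Mfap5, Fmo2 and Dpt were lower in all 4 metastases than in each of the 6 lung tumors, and all 4 passed the test over both genotypes, which here means the average of the changes within Nfib-floxed and within RPR2 mice. Dcn, Lum, Pdgfra, Pdgfrb, Acta2 and Rgs5, which include the mural cell genes and both proteoglycans, had overlapping ranges in the 2 tissues and did not pass. Over both genotypes, 4 of the 10 genes passed in limma's test at an adjusted p under 0.05, all lower in metastases, where 5.88% of the 15503 genes passed in either direction and 4.12% as lower. The median log2 change of the 10 genes was -0.72, beside -0.10 over all genes tested. It was -1.38 within Nfib-floxed mice and -0.27 within RPR2 mice, beside -0.05 and -0.15 over all genes. Of all genes tested, 4.16% were lower in every metastasis than in every lung tumor and 0.587% higher, beside 4 and 0 of these 10.

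Mgp, matrix Gla protein, is a small secreted inhibitor of calcification made by fibroblasts, vascular smooth muscle and cartilage. It stood at 27.2 and 32.3 TPM in the Nfib-floxed metastases, against 787, 457 and 1472 TPM in the Nfib-floxed lung tumors. The RPR2 metastases held 47.5 and 43.5 TPM, against 354, 345 and 456 TPM in the RPR2 lung tumors. The tissues were far apart in each genotype, and the highest metastasis stood well below the lowest lung tumor. On the log2(TPM + 1) scale, on which all changes here are given and which understates those of low genes, Mgp fell by 3.88 ± 0.30 (SE) in metastases over both genotypes (limma, adjusted p = 0.000932). Its change was -4.72 ± 0.42 within Nfib-floxed mice (adjusted p = 0.00480) and -3.04 ± 0.42 within RPR2 mice (adjusted p = 0.00330). Group means were 29.8 ± 3.6 TPM in Nfib-floxed metastases (SD, n = 2) and 905 ± 518 TPM in Nfib-floxed lung tumors (n = 3), and 45.5 ± 2.83 TPM in RPR2 metastases (n = 2) and 385 ± 61.5 TPM in RPR2 lung tumors (n = 3).

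Mfap5, a microfibril-associated glycoprotein that decorates fibrillin in elastic tissue, was near 0 in metastases. It was at 0.147 and 0.617 TPM in the Nfib-floxed metastases, against 18.4, 12.3 and 15.5 TPM in the Nfib-floxed lung tumors. The RPR2 metastases held 0.322 and 0.0440 TPM, against 4.95, 5.12 and 7.26 TPM in the RPR2 lung tumors. No metastasis reached 1 TPM, and the lung tumors of the 2 genotypes did not overlap either. Mfap5 changed by -3.04 ± 0.30 in metastases over both genotypes (limma, adjusted p = 0.00130), by -3.57 ± 0.42 within Nfib-floxed mice (adjusted p = 0.0193) and by -2.51 ± 0.42 within RPR2 mice (adjusted p = 0.00694).

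Fmo2 encodes the flavin-containing monooxygenase known as the lung form. It was at 0.0843 and 3.73 TPM in the Nfib-floxed metastases, against 66.7, 72.2 and 58.2 TPM in the Nfib-floxed lung tumors. In RPR2 mice the metastases held 4.26 and 5.52 TPM, against 47.1, 155 and 41.7 TPM in the RPR2 lung tumors. The lowest value belongs to the metastasis of JHK1398 and the highest to the lung tumor of JHK1394. Fmo2 changed by -4.21 ± 0.47 in metastases over both genotypes (limma, adjusted p = 0.00228), by -4.88 ± 0.66 within Nfib-floxed mice (adjusted p = 0.0239) and by -3.55 ± 0.66 within RPR2 mice (adjusted p = 0.0112).

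Dpt, dermatopontin, binds decorin and collagen and marks fibroblasts in many organs. It was listed at 0 in the Nfib-floxed metastasis of JHK1398 and at 0.410 TPM in that of JHK1399, against 16.9, 1.34 and 5.78 TPM in the Nfib-floxed lung tumors. In RPR2 mice it was at 0.896 and 0.217 TPM in the metastases, against 2.37, 6.68 and 8.14 TPM in the RPR2 lung tumors. The tissues did not overlap, but the lung tumors of Nfib-floxed mice were spread widely. Dpt fell by 2.25 ± 0.55 in metastases over both genotypes (limma, adjusted p = 0.0409) and did not pass within Nfib-floxed mice (-2.47 ± 0.78, adjusted p = 0.367) or RPR2 mice (-2.03 ± 0.78, adjusted p = 0.182). Its call over both genotypes held under only 7 of the 22 alternatives in which Dpt was tested. The call over both genotypes was lost with median centring of the libraries (-2.09 ± 0.63, adjusted p = 0.0949), with mouse as a fixed block (-2.10 ± 0.64, adjusted p = 0.144) and without the metastasis of JHK1398 (-2.12 ± 0.66, adjusted p = 0.168). With any other single library left out, Dpt kept its call only without the lung tumor of JHK1373 (adjusted p = 0.0382) or that of JHK1399 (adjusted p = 0.0160), and otherwise had adjusted p-values of 0.0511 to 0.145.

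Within Nfib-floxed mice alone, 3 of the 10 genes passed, Mgp, Mfap5 and Fmo2, all lower, where 0.123% of all genes passed, all 19 lower. These calls rest on few libraries. Without the metastasis of JHK1398, Mgp still passed, while Mfap5 (-3.33 ± 0.52, adjusted p = 0.106) and Fmo2 (-3.81 ± 0.67, adjusted p = 0.143) did not. Without the lung tumor of JHK1398 none passed, at adjusted p = 0.0529 for Mgp and for Mfap5 and 0.109 for Fmo2, although the changes were -4.74 for Mgp, -3.44 for Mfap5 and -4.86 for Fmo2. Without the lung tumor of JHK997, Mfap5 (adjusted p = 0.0865) and Fmo2 (adjusted p = 0.0904) were lost. Mfap5 was also lost without the metastasis of JHK1399 (adjusted p = 0.0574), and Fmo2 without the lung tumor of JHK1399 (adjusted p = 0.0533) or either RPR2 metastasis (adjusted p = 0.0583 and 0.0594). With mouse as a fixed block over the 4 mice that gave both tissues, which drops the lung tumors of JHK997 and JHK1548, 1 of the 3 passed, and Mfap5 (-3.56 ± 0.60, adjusted p = 0.117) and Fmo2 (-4.96 ± 0.64, adjusted p = 0.0599) did not.

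Within RPR2 mice the same 3 genes passed, again lower, where 5.61% of all genes passed in either direction and 3.57% as lower. Mgp passed under every alternative tried. Mfap5 was lost with mouse as a fixed block (-2.36 ± 0.60, adjusted p = 0.0861) and without the metastasis of JHK1394 (-2.34 ± 0.55, adjusted p = 0.0773). Fmo2 was lost without the metastasis of JHK1394 (adjusted p = 0.0786) and without that of JHK1373 (adjusted p = 0.0912). Over both genotypes Mgp, Mfap5 and Fmo2 passed under all 23 alternatives tried, at adjusted p-values of up to 0.0266. Without the metastasis of JHK1398 the changes over both genotypes were -3.82 for Mgp, -2.92 for Mfap5 and -3.68 for Fmo2. Besides the normal lung epithelium genes, leukocyte genes summed to 133 to 320 TPM in metastases, against 315 to 930 TPM in lung tumors, with overlap and with 1 of 9, Laptm5, passing as lower (-1.79 ± 0.45, adjusted p = 0.0456); their part in these results was not tested. Without the 2 lung tumors richest in normal lung epithelium, of JHK1394 and JHK1398, the changes over both genotypes were -3.93 ± 0.34 for Mgp, -3.01 ± 0.29 for Mfap5 and -3.91 ± 0.44 for Fmo2 (adjusted p = 0.00749, 0.00889 and 0.0128). The lung tumors left still held 2489 to 13110 TPM of normal lung epithelium genes, against 41.0 to 267 TPM in metastases. The part of normal lung tissue in these changes was not tested.

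**Figure D2:**
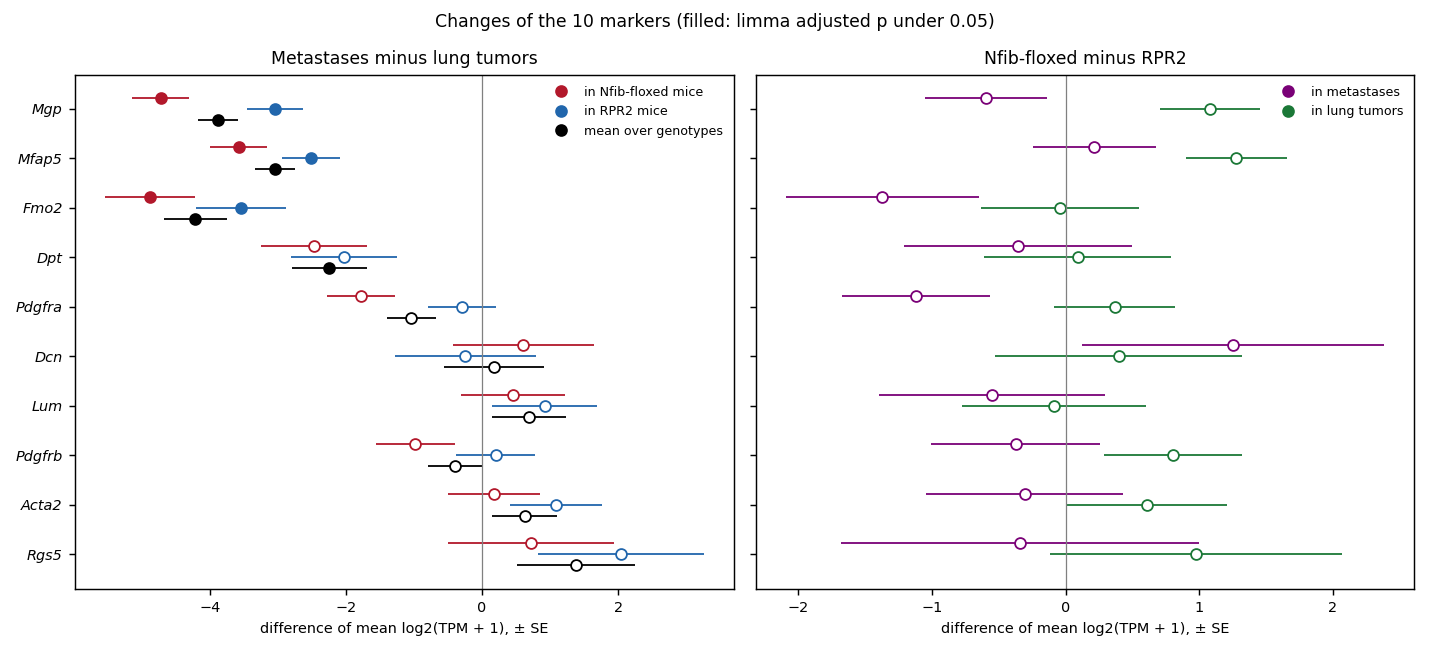
Difference of mean log2(TPM + 1) with its SE for each gene, metastases minus lung tumors on the left and Nfib-floxed minus RPR2 on the right; filled points passed limma's test at an adjusted p under 0.05. On the left Mgp, Mfap5 and Fmo2 are filled at each estimate and Dpt only for the mean over genotypes; on the right no point is filled.

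Pdgfra encodes the PDGF receptor of fibroblasts. It was at 0.0663 and 0.726 TPM in the Nfib-floxed metastases, against 3.87, 4.98 and 2.48 TPM in the Nfib-floxed lung tumors. In RPR2 mice it was at 1.14 and 3.05 TPM in the metastases, against 2.56, 3.88 and 1.72 TPM in the RPR2 lung tumors. The tissues overlapped in RPR2 mice and not in Nfib-floxed mice, where 14.8% of all genes were lower without overlap and 7.76% higher. No change passed: it was -1.78 ± 0.50 within Nfib-floxed mice (limma, adjusted p = 0.319), -0.30 ± 0.50 within RPR2 mice (adjusted p = 0.833) and -1.04 ± 0.36 over both (adjusted p = 0.126).

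Dcn (decorin) and Lum (lumican) encode small leucine-rich proteoglycans that bind collagen fibrils. Dcn was at 206 and 53.6 TPM in the Nfib-floxed metastases, against 57.0, 16.9 and 326 TPM in the Nfib-floxed lung tumors, and at 46.3 and 41.1 TPM in the RPR2 metastases, against 82.0, 75.8 and 22.4 TPM in the RPR2 lung tumors. The highest values were those of the JHK997 lung tumor and the JHK1398 metastasis, so the library with the lowest Dpt, Fmo2 and Pdgfra was second only to JHK997 for Dcn. The change over both genotypes was 0.18 ± 0.73 (limma, adjusted p = 0.933), and -0.30 ± 0.83 (adjusted p = 0.951) without that metastasis. Lum was far lower, at 0.499 and 3.65 TPM in the Nfib-floxed metastases, against 0.226, 0.0916 and 4.35 TPM in the Nfib-floxed lung tumors. The RPR2 metastases held 2.53 and 3.24 TPM of Lum, against 1.69, 0.188 and 1.68 TPM in the RPR2 lung tumors, without overlap; within RPR2 mice 15.1% of all genes were higher without overlap and 31% lower. Its change over both genotypes was 0.69 ± 0.54 (adjusted p = 0.537).

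Pdgfrb, the PDGF receptor of mural cells, was at 4.15 and 6.03 TPM in the Nfib-floxed metastases, against 6.01, 8.57 and 24.0 TPM in the Nfib-floxed lung tumors. It was at 7.06 and 6.54 TPM in the RPR2 metastases, against 7.37, 3.18 and 7.99 TPM in the RPR2 lung tumors. All libraries but the JHK997 lung tumor lay between 3.18 and 8.57 TPM, and the change over both genotypes was -0.39 ± 0.41 (limma, adjusted p = 0.654). Acta2 was at 48.9 and 50.0 TPM in the Nfib-floxed metastases, against 23.7, 30.2 and 116 TPM in the Nfib-floxed lung tumors. The RPR2 metastases held 39.0 and 96.3 TPM of Acta2, against 49.3, 16.2 and 28.5 TPM in the RPR2 lung tumors. The tissues overlapped in each genotype, and its change over both was 0.63 ± 0.48 (adjusted p = 0.515).

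Rgs5, a regulator of G-protein signaling that marks pericytes, was at 55.3 and 74.0 TPM in the Nfib-floxed metastases, against 11.1, 16.4 and 289 TPM in the Nfib-floxed lung tumors. In RPR2 mice the metastases held 88.1 and 74.9 TPM, against 31.5, 4.41 and 44.8 TPM in the RPR2 lung tumors. Each metastasis stood above 5 of the 6 lung tumors, and the exception was the JHK997 lung tumor, at the highest value of all. The change over both genotypes did not pass (1.38 ± 0.86, limma, adjusted p = 0.414), nor did it without that lung tumor (2.10 ± 0.56, adjusted p = 0.0748). With mouse as a fixed block, for which the JHK997 and JHK1548 lung tumors drop out, it did (2.40 ± 0.42, adjusted p = 0.0390).

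**Figure D3:**
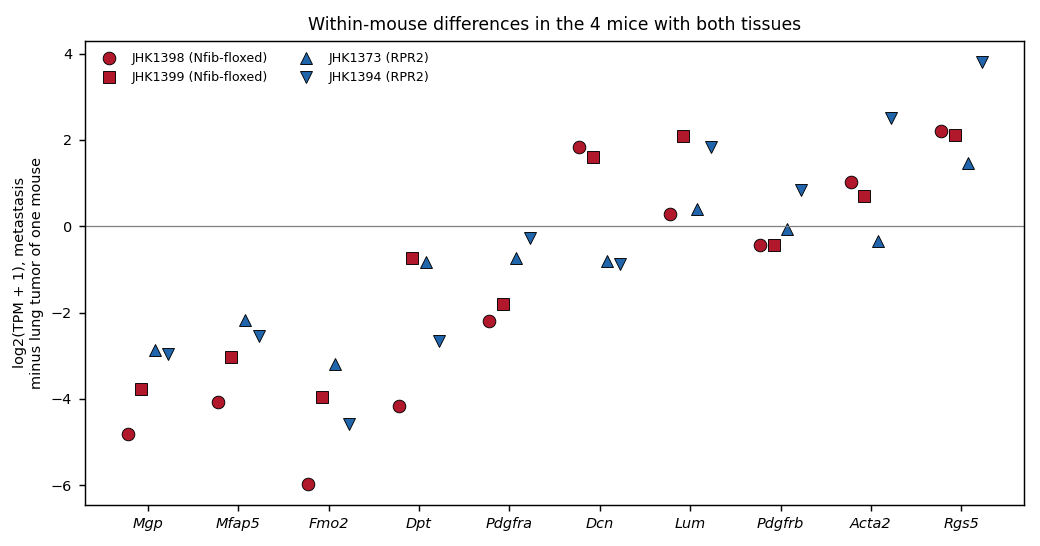
Difference in log2(TPM + 1), metastasis minus lung tumor of the same mouse, for each gene in the 4 mice that gave both tissues, in red for Nfib-floxed and in blue for RPR2 mice. Mgp, Mfap5, Fmo2, Dpt and Pdgfra lie below 0 in all 4 mice, Lum and Rgs5 above 0 in all 4, and Dcn above 0 in both Nfib-floxed mice and below 0 in both RPR2 mice.

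Within the 4 mice with both tissues, the difference, metastasis minus lung tumor, was -4.80 to -2.87 for Mgp, -4.08 to -2.17 for Mfap5 and -5.97 to -3.19 for Fmo2. Dpt (-4.16 to -0.73) and Pdgfra (-2.19 to -0.27) were lower in the metastasis of all 4 mice as well. Rgs5 was higher in the metastasis of all 4 mice, by 1.46 in JHK1373 up to 3.81 in JHK1394, and Lum by 0.29 to 2.09. Acta2 was higher in 3 of 4 mice and Pdgfrb in 1 of 4. Dcn differed in direction by genotype: the metastasis minus lung tumor difference was 1.83 and 1.61 in the Nfib-floxed mice JHK1398 and JHK1399, against -0.81 and -0.87 in the RPR2 mice JHK1373 and JHK1394. The interaction of genotype and tissue for Dcn did not pass (0.86 ± 1.46, limma, adjusted p = 0.937), and with mouse as a fixed block it was 2.56 ± 0.53 (adjusted p = 0.163).

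The Nfib genotype was then compared within each tissue. These comparisons share their libraries with those above. In lung tumors none of the 10 genes passed, and 0% of all 15503 genes did, with 1230 at an unadjusted p under 0.05 and a smallest adjusted p of 0.272. Mgp (1.08 ± 0.37, unadjusted p = 0.0151) and Mfap5 (1.28 ± 0.38, unadjusted p = 0.00640) came nearest, each at adjusted p = 0.595 in limma. All 3 Nfib-floxed lung tumors stood above all 3 RPR2 lung tumors for these 2 genes, a pattern that 5.66% of all genes showed and 8.81% showed in reverse. Mfap5 averaged 15.4 ± 3.08 TPM in Nfib-floxed and 5.78 ± 1.29 TPM in RPR2 lung tumors (SD, n = 3 each). For the mural genes the Nfib-floxed mean rests on JHK997: without it the change of Rgs5 was -0.46, against 0.98 ± 1.09 with it.

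In metastases none of the 10 genes passed for genotype either, where 2.04% of all genes did. Fmo2 (-1.37 ± 0.72, limma, adjusted p = 0.496), Pdgfra (-1.12 ± 0.55, adjusted p = 0.451) and Dcn (1.25 ± 1.13, adjusted p = 0.783) had the largest differences, Nfib-floxed minus RPR2. The 2 Nfib-floxed metastases did not overlap the 2 RPR2 metastases for Mgp, Fmo2, Pdgfra, Pdgfrb and Rgs5, which were lower in Nfib-floxed, and for Dcn, which was higher. With 2 against 2, 22% of all genes were lower without overlap and 23.8% higher. For the interaction none of the 10 passed, where 0.581% of all genes did, and Mgp came nearest (-1.68 ± 0.59, adjusted p = 0.342).

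Between genes, levels were ranked by group mean (SD; n = 2 for metastases, n = 3 for lung tumors). In Nfib-floxed metastases Dcn averaged 129.7 ± 108 TPM, Rgs5 64.6 ± 13.2 TPM, Acta2 49.4 ± 0.821 TPM and Mgp 29.8 ± 3.6 TPM, and the others 5.09 TPM or less. The spread of Dcn covers Rgs5 and Acta2, so their order is not set. In Nfib-floxed lung tumors Mgp led at 905 ± 518 TPM, and Dcn (133 ± 168 TPM), Rgs5 (105 ± 159 TPM), Fmo2 (65.7 ± 7.07 TPM) and Acta2 (56.5 ± 51.3 TPM) overlapped. In RPR2 metastases Rgs5 (81.5 ± 9.34 TPM), Acta2 (67.6 ± 40.5 TPM), Mgp (45.5 ± 2.83 TPM) and Dcn (43.7 ± 3.68 TPM) led, and the spread of Acta2 reaches all of the others. In RPR2 lung tumors Mgp led at 385 ± 61.5 TPM, and Fmo2 (81.4 ± 64.1 TPM), Dcn (60.1 ± 32.8 TPM), Acta2 (31.3 ± 16.7 TPM) and Rgs5 (26.9 ± 20.6 TPM) overlapped.

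**Figure D4:**
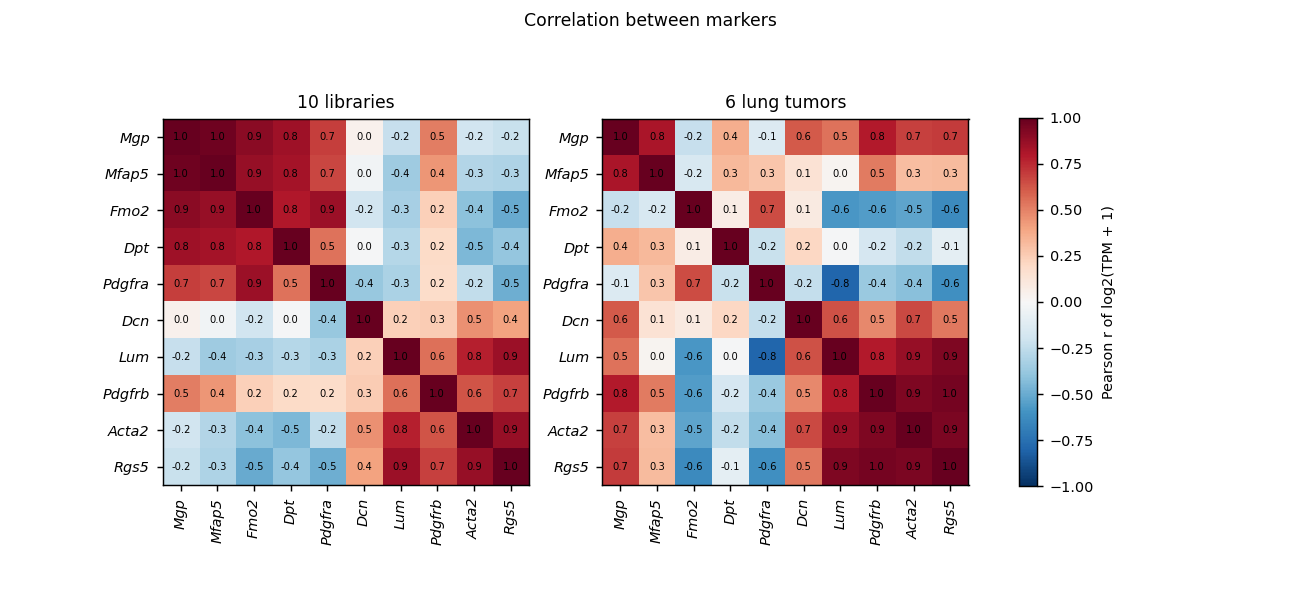
Pearson correlation of log2(TPM + 1) between the 10 genes over all 10 libraries (left) and over the 6 lung tumors (right). Over all libraries Mgp, Mfap5, Fmo2 and Dpt form a block of high values and Lum, Acta2 and Rgs5 another; over lung tumors Pdgfrb joins the second block, and Fmo2 no longer goes with Mgp.

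Over the 10 libraries Mgp and Mfap5 correlated at r = 0.97, Mgp and Fmo2 at 0.90 and Mgp and Dpt at 0.85; these values span both tissues, and the points share libraries. Over the 6 lung tumors Mgp and Mfap5 still correlated at 0.81, but Mgp and Fmo2 at -0.23 and Mgp and Dpt at 0.36. Acta2 and Rgs5 correlated at 0.87 over the 10 libraries and 0.94 over the lung tumors, and Pdgfrb and Rgs5 at 0.68 and 0.96. Lum went with Rgs5 (0.86 and 0.93) more than with its neighbor Dcn (0.24 and 0.64). Fmo2 and Rgs5 correlated at -0.50 and -0.64. JHK997 is the highest library for 6 of the genes and is in every one of these values, which are descriptions.

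Of the other tested genes, apart from predicted genes and those named only by a clone, those whose levels followed each member most closely over the 10 libraries were listed. Rgs5 was nearest to Ndufa4l2 (r = 0.97), a pericyte gene, and Acta2 to Brd3 (0.94) and Myl9 (0.94), the smooth muscle myosin light chain. Mgp and Mfap5 shared their 3 nearest genes, the antibody segments Igkv14-111 and Ighv5-4 and the endothelial gene Tmem204 (0.97 to 0.99). Fmo2 was nearest to Acvrl1 (0.97), an endothelial receptor, Dpt to the lymphoid chemokine gene Ccl21a (0.98) and Pdgfrb to Cd300lg (0.97). Pitpnm2 (0.92), Bptf (0.95) and Fas (0.93) were nearest to Dcn, Lum and Pdgfra. The mean standardized profile of the 10 genes was nearest to the antibody segments Ighv4-2 (0.95) and Ighv4-1 (0.95) and to Notch3 (0.90), the mural Notch receptor.

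Further genes of the same cells and of the matrix they make were read as lists. Among all genes 5.88% passed over both genotypes, 4.12% as lower, the background for the counts over both genotypes that follow. Of 29 other fibroblast genes tested, 2 fell in metastases and none rose: Loxl1, which crosslinks elastin (-1.86 ± 0.28, limma, adjusted p = 0.00796), and Timp3, a matrix protease inhibitor (-2.36 ± 0.47, adjusted p = 0.0178). Their median change was -0.28, beside -0.10 over all genes, and without the JHK1398 metastasis only Loxl1 passed. By genotype the median was -0.87 within Nfib-floxed mice, with all 29 changes below 0, beside -0.05 over all genes. It was 0.10 within RPR2 mice, with 16 changes above 0 and 13 below, beside -0.15 over all genes. Within RPR2 mice 3 of the 29 rose and 2 fell, where 5.61% of all 15503 genes passed, 316 as higher and 553 as lower. Fbln1 (3.63 ± 0.88, limma, adjusted p = 0.0385) and Serpinf1 (2.66 ± 0.58, adjusted p = 0.0234), which liver also expresses, were among those that rose. Igfbp5 (-3.41 ± 0.85, adjusted p = 0.0425) and Timp3 fell.

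Of 11 tested genes of lung's alveolar and peribronchial fibroblasts, 4 passed as lower in metastases on the average of the genotypes and none as higher. Inmt (-2.64 ± 0.58, limma, adjusted p = 0.0274) and the lung mesenchyme factor Tbx4 (-1.90 ± 0.31, adjusted p = 0.0101) passed there. The change of Inmt was -4.55 ± 0.82 within Nfib-floxed mice (adjusted p = 0.0924) and -0.73 ± 0.82 within RPR2 mice (adjusted p = 0.719), and that of Tbx4 -2.08 ± 0.44 (adjusted p = 0.166) and -1.72 ± 0.44 (adjusted p = 0.0470). Limch1 (-1.95 ± 0.24, adjusted p = 0.00320) and Ces1d (-1.69 ± 0.43, adjusted p = 0.0456) passed too. Limch1 averaged 66.4 TPM in Nfib-floxed metastases and 86.7 TPM in Nfib-floxed lung tumors, and 8.14 TPM in RPR2 metastases and 108 TPM in RPR2 lung tumors. Its change was -0.36 ± 0.34 within Nfib-floxed mice (adjusted p = 0.789) and -3.54 ± 0.34 within RPR2 mice (adjusted p = 0.000383). The change of Ces1d was 0.02 ± 0.60 within Nfib-floxed mice (adjusted p = 0.996) and -3.40 ± 0.60 within RPR2 mice (adjusted p = 0.00901). Between metastases, Nfib-floxed minus RPR2, Limch1 (2.89 ± 0.37, adjusted p = 0.00359) and Ces1d (3.28 ± 0.66, adjusted p = 0.0347) passed, and for the interaction Limch1 passed (3.18 ± 0.47, adjusted p = 0.0199) and Ces1d did not (3.42 ± 0.85, adjusted p = 0.158). The Limch1 interaction was lost without the JHK1398 metastasis (adjusted p = 0.0702) and with mouse as a fixed block (adjusted p = 0.0847), and the Ces1d call between metastases was lost without that metastasis (adjusted p = 0.0678). On the average of the genotypes Inmt (adjusted p = 0.128) and Ces1d (adjusted p = 0.209) were lost without it, and Limch1 and Tbx4 were not. The list's median there was -1.08.

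Of 14 adventitial fibroblast genes, Ly6a (-2.46 ± 0.47, adjusted p = 0.0168), Smoc2 (-2.11 ± 0.38, adjusted p = 0.0141) and Ogn (-2.02 ± 0.41, adjusted p = 0.0195) fell, and none did without that metastasis. Ly6a is also made by endothelium.

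The families of Mfap5, Dcn and Lum were also read. Of 18 elastic fiber and microfibril genes 4 fell and 1 rose over both genotypes: Ltbp2 (-3.03 ± 0.38, limma, adjusted p = 0.00336), Mfap4 (-2.46 ± 0.42, adjusted p = 0.0120), Fbln5 and Loxl1 fell, and Mfap2, the closest relative of Mfap5, rose (2.32 ± 0.41, adjusted p = 0.0135), with 1.16 ± 0.58 within Nfib-floxed mice (adjusted p = 0.569) and 3.48 ± 0.58 within RPR2 mice (adjusted p = 0.00679). Without the JHK1398 metastasis Ltbp2, Mfap4 and Loxl1 passed and Mfap2 did not. Between metastases, Nfib-floxed minus RPR2, Eln, the elastin gene (-3.04 ± 0.60, adjusted p = 0.0333), Mfap2 (-2.90 ± 0.64, adjusted p = 0.0468) and the fibroblast gene Igfbp4 (-2.26 ± 0.47, adjusted p = 0.0385) passed as lower, and none of the 3 did without that metastasis (adjusted p = 0.121, 0.119 and 0.177). Of 9 tested small leucine-rich proteoglycan genes other than Dcn and Lum, 4 fell: Chad (-3.15 ± 0.73, adjusted p = 0.0328), Fmod (-2.23 ± 0.43, adjusted p = 0.0164), Ogn and Bgn (-1.18 ± 0.24, adjusted p = 0.0214), none of which passed without that metastasis. Bgn, biglycan, was at 26.2 and 50.9 TPM in Nfib-floxed metastases and 45.6 and 56.1 TPM in RPR2 metastases, against 79.9 to 132 TPM in the 6 lung tumors.

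Of 16 pericyte genes only Vtn rose over both genotypes (3.25 ± 0.48, limma, adjusted p = 0.00709). Vtn, vitronectin, is made in bulk by hepatocytes, and it stood at 12.9 TPM in the JHK1398 metastasis, 71.4 TPM in that of JHK1399 and 186 and 201 TPM in the RPR2 metastases, against 3.54 to 11.9 TPM in lung tumors. The hepatocyte sum was likewise highest in the RPR2 metastases and lowest, among metastases, in JHK1398, and its part in the Vtn result was not tested. Without Vtn the pericyte sum was 72.6 to 202 TPM in metastases, against 77.1 to 191 TPM in lung tumors. Of 16 smooth muscle contractile genes none passed, and Actg2 (1.21 ± 0.38, adjusted p = 0.0978) came nearest. Of 11 stellate cell genes Colec11 rose (2.85 ± 0.57, limma, adjusted p = 0.0186). The changes of the 11 were above 0 for 6 and below 0 for 5, with a median of 0.27, beside -0.10 over all genes. Lrat, Hand2, Colec10 and Gdf2, also of the stellate list, averaged under 1 TPM and were not tested. Of these, the stellate marker Lrat was low throughout. It was at 0.331 and 0.788 TPM in Nfib-floxed metastases and 1.97 and 1.26 TPM in RPR2 metastases, against 0.133 to 1.36 TPM in lung tumors. Hand2 stood at 0.242 and 1.57 TPM in Nfib-floxed and 1.10 and 0.864 TPM in RPR2 metastases, against 0 to 0.0764 TPM in lung tumors. In the same order, Colec10 was at 0.0269, 0.559, 1.42 and 1.52 TPM, against 0 to 0.0686 TPM in lung tumors. Gdf2 was at 0, 1.23, 1.46 and 1.32 TPM, against 0 to 0.122 TPM in lung tumors. Of 11 activated fibroblast genes Ltbp2 alone passed, and its values are given above.

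The ligands and paralogs of the members were read as well. Pdgfa, a ligand of PDGF receptor alpha, fell in metastases over both genotypes (-1.16 ± 0.27, limma, adjusted p = 0.0325), at 12.5 to 36.1 TPM in metastases, against 33.4 to 83.3 TPM in lung tumors; the call was lost without the JHK1398 metastasis. Pdgfb, the ligand that recruits pericytes, fell within RPR2 mice (-2.61 ± 0.60, adjusted p = 0.0309), at 1.65 and 2.63 TPM in metastases, against 13.0, 37.7 and 11.5 TPM in lung tumors. With median centring neither Pdgfa nor Pdgfb passed. Among the other flavin monooxygenases, Fmo5, the liver form, rose within RPR2 mice (3.42 ± 0.79, adjusted p = 0.0307), opposite to Fmo2. None of 5 other RGS genes of the R4 group passed, and Rgs2 (-1.77 ± 0.48, adjusted p = 0.0572) came nearest.

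**Figure D5:**
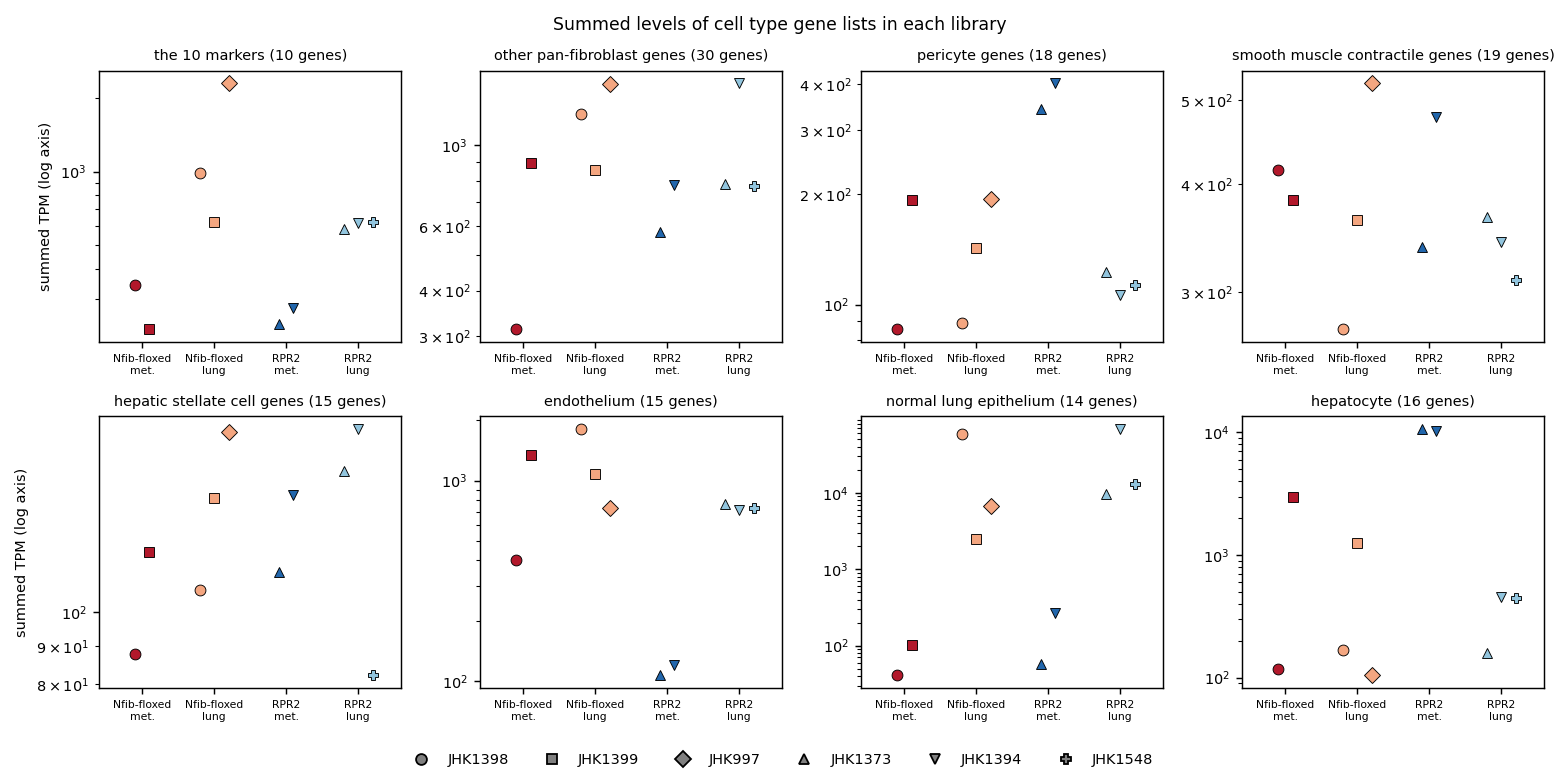
Summed TPM, on log axes, of the 10 genes and of 7 gene lists in each library; symbols mark the mouse. The sum of the 10 genes, most of it Mgp in lung tumors, and that of normal lung epithelium are lower in all 4 metastases, the pericyte sums of the RPR2 metastases hold 186 and 201 TPM of Vtn, and the JHK1398 metastasis (circle, left) is low for hepatocyte and other fibroblast genes.

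Lists for other cells were read beside the 10 genes. Endothelial genes summed to 402 and 1344 TPM in Nfib-floxed metastases, against 732 to 1810 TPM in Nfib-floxed lung tumors, and to 107 and 120 TPM in RPR2 metastases, against 713 to 762 TPM in RPR2 lung tumors. Outside the RPR2 metastases Vwf, the gene of von Willebrand factor, made up most of each sum. Without it the other 14 genes summed to 69.9 to 100.4 TPM in metastases, against 104.9 to 238 TPM in lung tumors, without overlap. Of 15 endothelial genes 3 passed as lower over both genotypes and none as higher: Vwf (-2.70 ± 0.40, limma, adjusted p = 0.00708), Clec14a (-2.11 ± 0.45, adjusted p = 0.0241) and Cldn5 (-1.97 ± 0.43, adjusted p = 0.0270). Without the JHK1398 metastasis Vwf alone passed. The change of Vwf was -0.45 ± 0.57 within Nfib-floxed mice (adjusted p = 0.856) and -4.95 ± 0.57 within RPR2 mice (adjusted p = 0.00137). It was higher in Nfib-floxed metastases, against RPR2 metastases (5.08 ± 0.62, adjusted p = 0.00290). Its interaction passed (4.49 ± 0.80, limma, adjusted p = 0.0408). That call was lost with quantile normalization, median centring or rescaling, without the lung tumors of JHK1394 and JHK1398, or with mouse as a fixed block (adjusted p = 0.182). The other 14 endothelial genes passed neither between metastases nor for the interaction. Between metastases, Nfib-floxed minus RPR2, 11 of the 15 had a change below 0. Mesothelial genes summed to 1.75 to 135 TPM in metastases, against 45.8 to 318 TPM in lung tumors, and none of 6 passed. Airway cartilage genes, where Mgp is also made, summed to 14.96 to 89.6 TPM in metastases, against 17.2 to 43.0 TPM in lung tumors, and none of 3 passed. Neuroendocrine tumor genes summed to 2554 to 61184 TPM in metastases, against 9312 to 74984 TPM in lung tumors, and none of 10 passed. The part of these cells in the falls of Mgp, Mfap5, Fmo2 and Dpt was not tested. Mitochondrial transcripts made up 12.9% of the JHK1398 lung tumor and 4.32% to 7.13% of the other libraries.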

How the data were processed

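RNA was sequenced from 10 libraries of 6 mice in 4 groups of 2 or 3, assigned by their labels. Per the labels' protocols, tissue was snap-frozen and polyA RNA selected. The submitters' processing notes name GRCm38 as the build and Salmon 0.12.0, bcl2fastq 2.20 and R 4.1.0 as tools, without annotation or settings. The authors deposited TPM per gene. Since TPM keeps no depth, sequencing depth could not be read from the files, and no interval from counting is printed.

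Differences were tested with limma 3.58.1 (R 4.3.3) on log2(TPM + 1) for the 15503 genes averaging 1 TPM or more. A single 4-group model gave 6 comparisons, two-sided, with moderated variances, a mean trend (residual degrees of freedom 6, prior 4.56) and Benjamini-Hochberg adjustment over all genes at 0.05. The steps were tested on simulated data. Tables and figures used Python 3.11.15, numpy 2.4.6, pandas 2.3.3 and matplotlib 3.10.9.

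Lung tumors and metastases with the same mouse tag come from the same mouse, so they are pairs by the labels. Across genes, the pairs' residuals from their groups correlated at -0.02, -0.01, 0.04 and 0.05. The model treated them as independent, and mouse as a block was an alternative. Further alternatives were pseudocounts (0.1, 5), filters (none, or a mean of 5 TPM), scaling by quantile normalization or by median centring, rescaling without genes of other cell types, array weights, robust moderation, fits of the compared groups alone and libraries left out.

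All 10 members are named in every library. From each list up to 4 genes past the threshold are named, those with the largest changes first. Where none passed, up to 2 with the smallest p are named. Fbln5, Lrat, Hand2, Colec10 and Gdf2 are named besides, chosen after their values were seen. The members, the lists and the rule were chosen with earlier results of these data known. All 266 list symbols were matched.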

Additional observations from a re-analysis of the deposited data

Results flagged for a closer look

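Dcn was flagged because the change from lung tumor to metastasis ran in opposite directions in the 2 genotypes. Both Nfib-floxed mice were higher in the metastasis, by a mean of 1.72 on the log2(TPM + 1) scale, and both RPR2 mice were lower, by a mean difference of -0.84, so that the genotypes differed by 2.56. The difference was tested as the interaction and did not pass, at 0.86 ± 1.46 over all libraries (limma, adjusted p = 0.937) and 2.56 ± 0.53 within mice (adjusted p = 0.163). The third Nfib-floxed lung tumor, of JHK997, has no paired metastasis and held the highest Dcn of all, at 326 TPM. How many of all genes ran in opposite directions in the 2 genotypes was not counted.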

How the results depend on the processing

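No change of the 10 genes that passed the test turned in direction under any alternative. Over both genotypes 3 or 4 of the 10 genes passed under every alternative tried. Within Nfib-floxed mice 3 passed; 1 did with a pseudocount of 5, 1 with no filter and 1 with mouse as a fixed replicate block. None did (0) in the fit of the compared groups alone, without the lung tumors of JHK1394 and JHK1398, or without the lung tumor of JHK997 and the metastasis of JHK1398, an alternative chosen after seeing the data. Leaving out 1 library gave 0 to 3. The cause was not tested. Within RPR2 mice 2 to 4 passed, and 1 to 3 with 1 library left out, 1 being the value without the metastasis of JHK1394. For genotype and the interaction no member passed under any alternative. Where an arm was left with 1 library, that library was assumed to vary like the other groups. The block as a random effect (estimated correlation 0.051) gave 3, 3 and 4 members for the 3 tissue comparisons, as without it. With array weights Dpt passed within RPR2 mice (-2.01 ± 0.59, limma, adjusted p = 0.0484), and with a pseudocount of 0.1 Fmo2 there did not (-3.77 ± 1.02, adjusted p = 0.0557). Centring moved the median of all genes within RPR2 mice to 0.09, and quantile normalization to 0.05, against -0.15; for Mfap5 over both genotypes the change was -4.87 with a pseudocount of 0.1 and -1.48 with 5. Counts over all genes ranged from 0 to 40 (Nfib-floxed tissue), 272 to 2069 (RPR2 tissue), 232 to 1174 (mean tissue), 0 to 1 (genotype in lung tumors), 0 to 445 (genotype in metastases) and 11 to 142 (interaction). TPM near 0, as for Mfap5, Dpt, Lum and Pdgfra in metastases, cannot be given a detection limit without depth.

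Of the changes that did not pass, 21 turned in direction under at least 1 alternative, and none passed in doing so. With array weights, tissue in Nfib-floxed mice gave -0.066 for Dcn, -0.11 for Lum, -0.42 for Acta2 and -0.49 for Rgs5. There, tissue in RPR2 mice gave 0.051 for Dcn and -0.046 for Pdgfrb. There, tissue over both genotypes gave -0.0075 for Dcn. There, genotype in lung tumors gave 0.21 for Lum, 0.32 for Fmo2 and -0.25 for Dpt. There, the interaction gave -0.12 for Dcn. Without the lung tumors of JHK1394 and JHK1398, tissue in Nfib-floxed mice gave -0.26 for Acta2 and -0.13 for Rgs5. There, tissue in RPR2 mice gave 0.018 for Dcn and -0.15 for Pdgfrb. There, genotype in lung tumors gave 0.54 for Fmo2 and -0.48 for Dpt. There, the interaction gave 0.12 for Dpt. Without the lung tumor of JHK997 and the metastasis of JHK1398, genotype in lung tumors gave -0.72 for Dcn, 0.040 for Fmo2, -0.084 for Acta2 and -0.46 for Rgs5. There, genotype in metastases gave 0.27 for Lum. There, the interaction gave 1.09 for Lum and 0.33 for Rgs5. With quantile normalization, genotype in lung tumors gave 0.052 for Fmo2. With median centring, genotype in lung tumors gave 0.015 for Lum and 0.056 for Fmo2. With rescaling, genotype in lung tumors gave 0.0033 for Fmo2. With a pseudocount of 5, genotype in lung tumors gave 0.035 for Lum. With mouse as a fixed replicate block, the interaction gave 0.076 for Lum. With 1 library left out, tissue in Nfib-floxed mice ran from -0.38 to 1.72 for Dcn (0.61 with all libraries), -0.26 to 0.86 for Acta2 (0.17 with all libraries), -0.13 to 2.16 for Rgs5 (0.72 with all libraries) and -0.36 to 1.27 for Lum (0.45 with all libraries). With 1 library left out, tissue in RPR2 mice ran from -0.75 to 0.16 for Pdgfra (-0.30 with all libraries), -0.84 to 0.073 for Dcn (-0.25 with all libraries) and -0.15 to 0.40 for Pdgfrb (0.20 with all libraries). With 1 library left out, tissue over both genotypes ran from -0.31 to 0.74 for Dcn (0.18 with all libraries). With 1 library left out, genotype in lung tumors ran from -0.82 to 0.33 for Lum (-0.085 with all libraries), -0.63 to 0.83 for Dpt (0.089 with all libraries), -0.38 to 0.55 for Fmo2 (-0.043 with all libraries), -0.72 to 1.38 for Dcn (0.40 with all libraries), -0.084 to 1.04 for Acta2 (0.61 with all libraries) and -0.46 to 1.83 for Rgs5 (0.98 with all libraries). With 1 library left out, genotype in metastases ran from -0.95 to 0.34 for Acta2 (-0.31 with all libraries), -1.37 to 0.27 for Lum (-0.55 with all libraries) and -0.035 to 0.46 for Mfap5 (0.21 with all libraries). With 1 library left out, the interaction ran from -0.13 to 1.97 for Dcn (0.86 with all libraries), -1.28 to 0.35 for Lum (-0.47 with all libraries), -1.19 to 0.28 for Dpt (-0.45 with all libraries) and -2.17 to 0.12 for Rgs5 (-1.32 with all libraries).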
